A study of Mus musculus with 12 samples.

Results

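RNA of the trigeminal ganglion was compared with RNA of the spinal trigeminal nucleus caudalis in 6 of the 12 mouse libraries of a series about chronic pain after jaw joint inflammation. The 6 were chosen by their titles: 3 libraries titled STG, from trigeminal ganglia, and 3 titled SSp5C, from the caudal nucleus. The mice were wild type, of the inbred strain C57BL/6, and aged 8 weeks. The other 6 libraries, 3 titled CTG and 3 titled CSp5C, came from the same pair of tissues, strain and age and were used only where stated. The labels do not say what S and C stand for, which agent any group received, or whether each library is an animal of its own. A p-value here thus reflects the spread among 3 libraries a group, part or all of which may be technical.

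The trigeminal ganglion lies outside the brain and contains the sensory neurons that serve the head, wrapped by satellite glial cells and, along their axons, by Schwann cells. Its pain and temperature fibres end in the caudal part of the spinal trigeminal nucleus, a layered brainstem region built like the dorsal horn of the spinal cord, with excitatory and inhibitory local neurons, astrocytes, oligodendrocytes and microglia. The comparison asks how the RNA of a peripheral sensory ganglion differs from that of its central target, gene class by gene class.

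The deposited values are FPKM, sequenced fragments scaled to transcript length and library size. They were summed over the transcripts of a gene, and differences are means of log2(FPKM + 1) in STG minus those in SSp5C, which understates differences of low genes. Of 21981 genes in the table, 13038 had a mean of at least 1 FPKM over the 6 libraries and were tested with limma, a linear model with a moderated variance. A gene near 0 in 1 tissue could pass this filter only through the other tissue, which fixed its direction. A gene was called when its adjusted p was under 0.05 and its log2 difference was at least 1 in size, which is a change of at least 1 doubling. Values with ± are means and SD over the 3 libraries of a group. In bulk tissue, fewer cells of a type and less RNA per cell cannot be told apart.

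The libraries summed to between 285789 and 312897 FPKM, and their median ratios of gene values to the common level were 0.978 to 1.03. The read number behind a value is unknown. Log2 values correlated over genes at r = 0.976 to 0.985 within STG, 0.984 to 0.989 within SSp5C and 0.77 to 0.794 between the tissues. Marker lists matched the tissue labels. The 18 peripheral myelin and Schwann cell genes summed to 5367 to 6231 FPKM in STG and 92.7 to 112 in SSp5C, and 16 oligodendrocyte genes to 80.1 to 102 against 1085 to 1130. In other lists 3 libraries stood apart. STG replicate 1 held 2878 FPKM of 11 pituitary genes against 2.57 and 10.01 in the other STG libraries and 0.689 to 0.945 in SSp5C. STG replicate 3 held 1256 FPKM of 5 red blood cell genes against 105 to 621 in the rest. SSp5C replicate 2 held 217 FPKM of 14 fibroblast and meningeal genes against 43.8 and 55.6 in the other SSp5C libraries. Among the 147 genes called higher in STG by at least 3 on the log2 scale, SSp5C replicate 2 had the highest SSp5C value for 98. Among the 127 called lower by as much, STG replicate 1 had the highest STG value for 65. Skeletal muscle genes summed to 1.43 to 1.88 FPKM in every library.

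**Figure D1:**
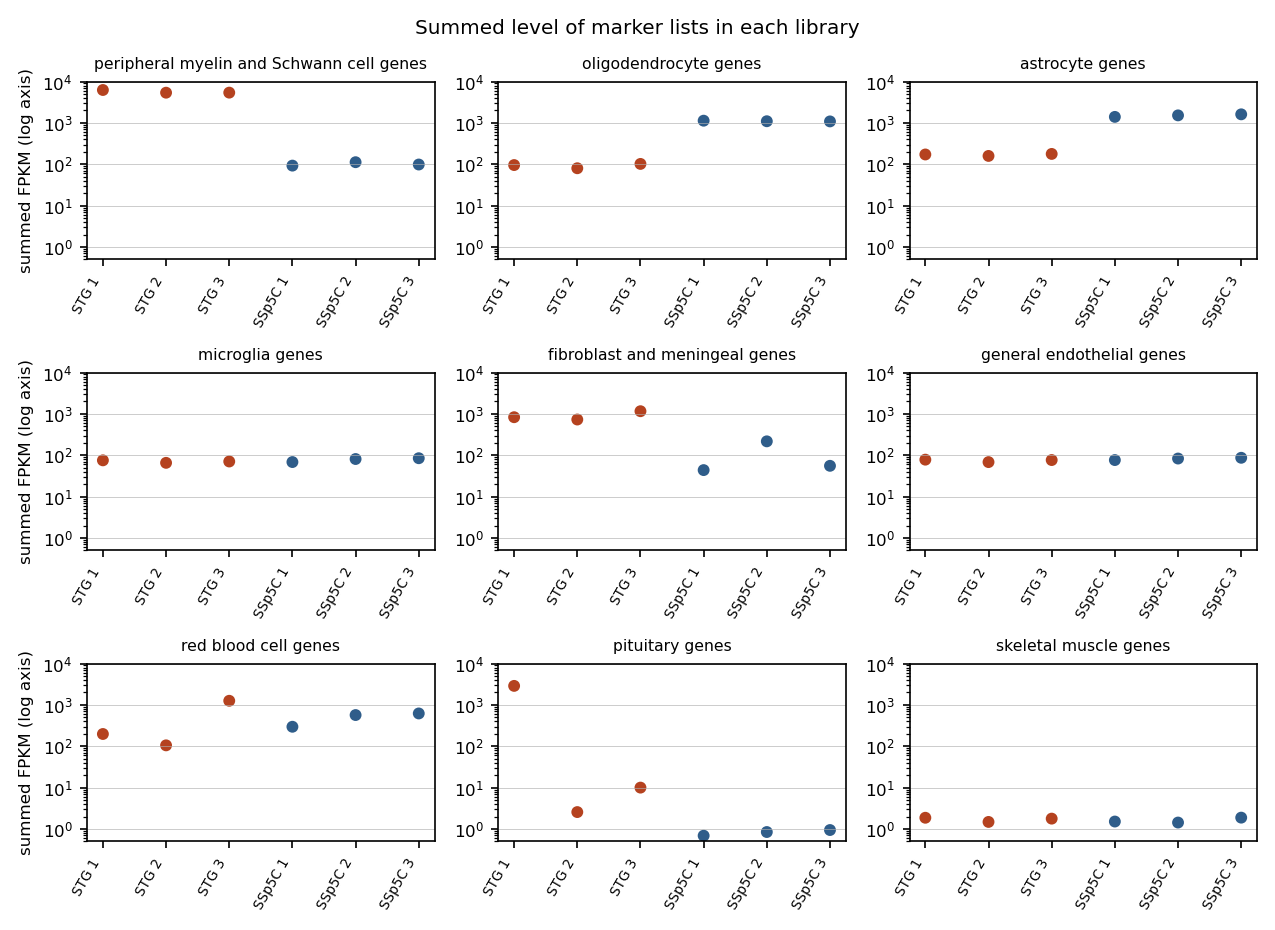
Summed FPKM of 9 marker lists (y axis, log scale) in each of the 3 STG (red) and 3 SSp5C (blue) libraries (x axis). Schwann cell genes were high in STG, oligodendrocyte and astrocyte genes were high in SSp5C, and pituitary genes reached 2878 FPKM in STG replicate 1 alone.

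Of the genes tested, 2496 were called (19.1%): 1302 higher (9.99%) and 1194 lower (9.16%) in STG. The median difference over all genes tested was 0.02. Groups did not overlap for 69.2% of the genes tested, so a lack of overlap is common here and not particular to a gene. Genes of peripheral myelin and pain-sensing neurons were among the highest differences, and genes of inhibitory transmission among the lowest. Prx, a scaffold of peripheral myelin, stood at 238, 230.3 and 211 FPKM in the STG libraries and 0.397, 0.839 and 0.496 in SSp5C, a log2 difference of 7.18 with a standard error of 0.11 (limma, adjusted p = 4.87e-08). Every STG library was far above every SSp5C library. Glra1, the main adult subunit of the inhibitory glycine receptor, stood at 0.147, 0.024 and 0.0456 FPKM in STG and 85.9, 88.2 and 92.0 in SSp5C, a difference of -6.39 (adjusted p = 4.55e-08). Every SSp5C library was far above every STG library.

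Other genes among the 15 highest were Avil (6.94), the actin binder advillin of sensory neurons, Fxyd2 (6.60), a modulator of the sodium pump, and Scn10a (6.39), a sodium channel of pain-sensing neurons. Tusc5 (6.37), Trappc3l (6.33), Plekha4 (6.25), Tmem233 (5.98) and Pirt (5.91), a regulator of the heat channel Trpv1, came next. Cldn19 (5.86), a tight junction protein of Schwann cells, Ppp1r1c (5.80), Scn11a (5.75), another nociceptor sodium channel, Ncmap (5.45), a myelin protein of peripheral nerve, and Ngfr (5.42), the low-affinity neurotrophin receptor, followed. The 15 lowest were Glra1 and Slc6a5 (-5.98), the glycine transporter of nerve endings, Slc12a5 (-5.91), the neuronal chloride extruder, Gad1 (-5.81) and Gad2 (-5.20), which make GABA, and Slc32a1 (-5.78), which loads GABA and glycine into vesicles. Lamp5 (-5.75), Slc6a11 (-5.56), a GABA transporter, Slc1a2 (-5.30), the astrocyte glutamate transporter, Hoxb5 (-5.21), Hoxa5 (-4.91), Penk (-4.80), the enkephalin precursor, Htr2c (-4.75), a serotonin receptor, Grin2a (-4.74), an NMDA receptor subunit, and Olig1 (-4.66), an oligodendrocyte factor, followed.

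**Figure D2:**
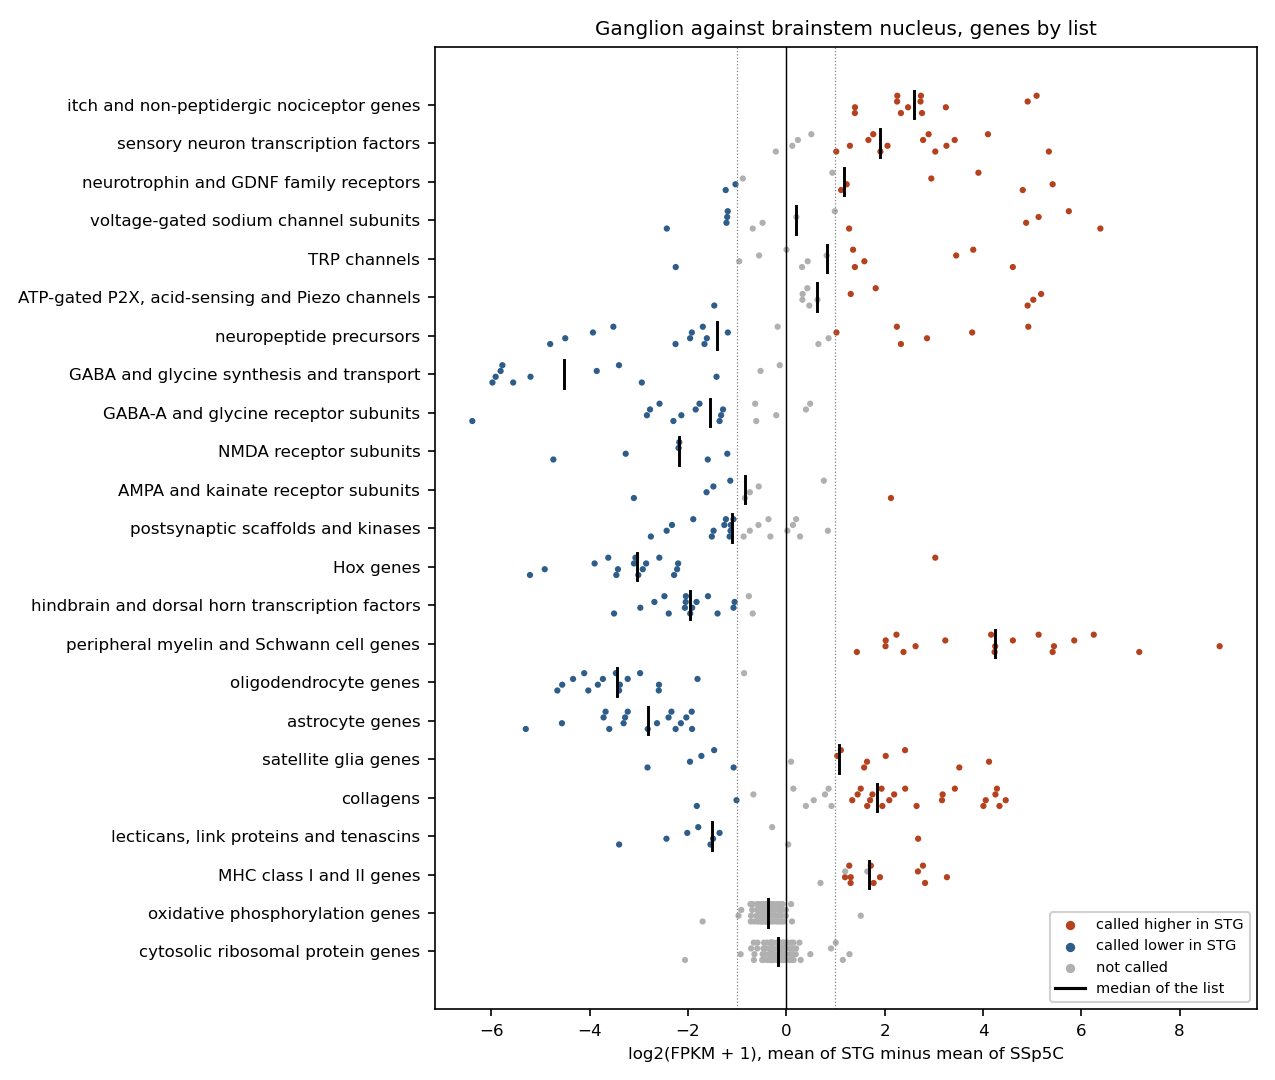
Difference of mean log2(FPKM + 1), STG minus SSp5C (x axis), for the tested genes of 23 lists (y axis), 1 point per gene, with the median of each list as a bar and dotted lines at 1 and -1. Schwann cell, nociceptor and collagen genes lay mostly to the right, inhibitory, NMDA receptor, Hox and astrocyte genes mostly to the left, and genes of respiration and ribosomes near 0.

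Neuropeptides, the slow transmitters that sensory and local neurons release, divided between the tissues. Of 20 precursors tested, 6 were higher and 11 lower in STG, with a median difference of -1.4. Calca, which encodes the pain peptide CGRP, stood at 300.2, 312.9 and 290.9 FPKM in STG and 6.59, 12.7 and 8.5 in SSp5C (difference 4.92). Tac1, the substance P precursor, stood at 131.5, 150.2 and 109.5 FPKM against 23, 31.3 and 25.6 (2.25). The groups did not overlap for either gene. Nmb (3.78), Calcb (2.86), Nppb (2.33) and Gal (1.02) were the others called higher, and the call of Gal was lost in 4 of the 6 fits with 1 library left out. On the nucleus side, Penk stood at 0.957, 0.904 and 1.86 FPKM in STG and 57.1, 66.2 and 58.6 in SSp5C. Sst, somatostatin, stood at 2.93 ± 0.84 against 86.4 ± 3.20 (-4.50), Npy at 0.134 ± 0.064 against 16.3 ± 1.17 (-3.93) and Cck at 0.863 ± 0.447 against 20.1 ± 2.89 (-3.52). Pdyn (-2.25), Tac2 (-1.96), Pnoc (-1.92), Nts (-1.70), Trh (-1.67), Crh (-1.62) and Grp (-1.19) were also lower in STG. Adcyap1 (0.65), Cartpt (0.86) and Npff (-0.18) were not called.

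Of 24 peptide receptors tested, 1 was higher and 10 lower in STG, with a median of -0.80. Tacr1, the substance P receptor, stood at 0.117, 0.0812 and 0.0799 FPKM in STG and 2.04, 2.66 and 2.24 in SSp5C (-1.60), the reverse of its ligand gene Tac1. Ramp1, a subunit of the CGRP receptor, stood at 0.667 ± 0.0045 against 11.1 ± 0.26 (-2.85), the reverse of Calca. Calcrl, which pairs with Ramp1, was not called (-0.38). Adcyap1r1 (-3.62), Ntsr2 (-3.60) and Cckbr (-2.04) were lower in STG as well, and the cholecystokinin receptor Cckar (2.62) was the only member called higher. The opioid receptors Oprm1 (0.41), Oprd1 (-0.43) and Oprk1 (-0.66) were not called, and Oprl1, the nociceptin receptor, was (-1.54).

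Most genes of inhibitory transmission were lower in the ganglion. Of 12 genes of GABA and glycine synthesis and transport, 0 were higher and 10 lower in STG, with a median of -4.53. Slc32a1 stood at 0.114, 0 and 0.0503 FPKM in STG and 59.4, 54.9 and 56.0 in SSp5C. Gad1 stood at 0.43, 0.276 and 0.182 against 69.8, 72.0 and 73.1. The glycine transporter Slc6a5 stood at 0.0732 ± 0.04 against 66.7 ± 4.35. All 3 were near 0 in each ganglion library and passed the filter on low levels through SSp5C, which fixed their direction. The same holds for Gad2. The chloride importer Slc12a2 was the exception among the transporters, at 52.1 ± 1.55 against 57.3 ± 3.17 (-0.13, not called). Gphn, the anchor of inhibitory receptors, was not called either (-0.53).

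Receptors for these transmitters were lower in the ganglion or not called. Of 16 GABA-A and glycine receptor subunits, 0 were higher and 11 lower in STG (median -1.56). Glra1, Glra3 (-2.84), Gabra3 (-2.77) and Gabrb1 (-2.58) were lowest. The subunits Gabra2 (23.2 ± 0.88 FPKM in STG against 27.0 ± 3.47) and Gabrg1 (10.7 ± 0.42 against 7.76 ± 3.11) were among those not called. GABA-B and metabotropic glutamate receptors had 0 higher and 4 lower of 9. Grm5 (-3.95), Grm3 (-3.58) and Grm2 (-1.15) were among these.

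The vesicular transporters that mark glutamate neurons were not called. Slc17a6, the vesicular glutamate transporter of sensory and hindbrain neurons, stood at 54.3, 54.8 and 53.9 FPKM in STG and 52.1, 61.0 and 57.5 in SSp5C (-0.06, adjusted p = 0.418), with overlapping groups. Slc17a7 stood at 50.3 ± 1.93 against 34.5 ± 5.88 (0.54, not called). The 5 of 8 genes of glutamate synthesis and transport that were called, all lower in STG, were the uptake carriers Slc1a2, Slc1a1 (-2.90), Slc1a3 (-2.40) and Slc1a6 (-1.63) and the glial enzyme Glul (-1.73).

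Glutamate receptors were mostly lower in the ganglion. All 6 NMDA receptor subunits tested were called lower (median -2.19). Grin2a stood at 0.286, 0.0282 and 0.103 FPKM in STG and 30.4, 27.8 and 29.7 in SSp5C. Grin1, the subunit every NMDA receptor needs, kept the highest ganglion level of the family, at 32.6 ± 0.32 FPKM against 76.3 ± 3.44 (-1.20). Grin2b (-3.27), Grin2d (-2.19), Grin2c (-2.18) and Grin3a (-1.60) lay between. Of 9 AMPA and kainate subunits, 1 was higher and 4 lower. Gria1 (-3.10), Gria3 (-1.62), Gria2 (-1.48) and Gria4 (-1.14) were lower. The kainate subunit Grik1 was higher, at 34.9, 30.3 and 25.8 FPKM in STG against 6.04, 5.98 and 6.34 (2.13).

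Monoamine and acetylcholine genes followed the nucleus, with 0 of 10 higher and 6 lower in STG. Slc5a7 (-3.33), Slc18a3 (-3.25) and Chat (-2.27), of acetylcholine synthesis and storage, and Ddc (-2.34) were lowest. Dbh, which makes noradrenaline, had a value of 0 in each STG library. Th (0.68), the first enzyme of dopamine synthesis, was not called. Serotonin receptors divided, with 3 of 11 higher and 4 lower. Htr3a (3.60), Htr1d (2.89), a target of migraine drugs, and Htr3b (2.20) were higher, and Htr2c, Htr1a (-1.18), Htr5a (-1.16) and Htr7 (-1.01) lower. Acetylcholine receptors had 3 of 8 higher, Chrna6 (2.46), Chrnb3 (2.07) and Chrna7 (1.34), and 3 lower, Chrna4 (-3.52), Chrm2 (-1.72) and Chrm3 (-1.72). Chrna6 varied most among the ganglion libraries, at 11.7 FPKM in STG replicate 1 and 3.15 and 2.93 in the others. Of 8 adrenergic and dopamine receptors, 0 were higher and 5 lower, led by Drd2 (-2.28) and Adra2a (-2.13).

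**Figure D3:**
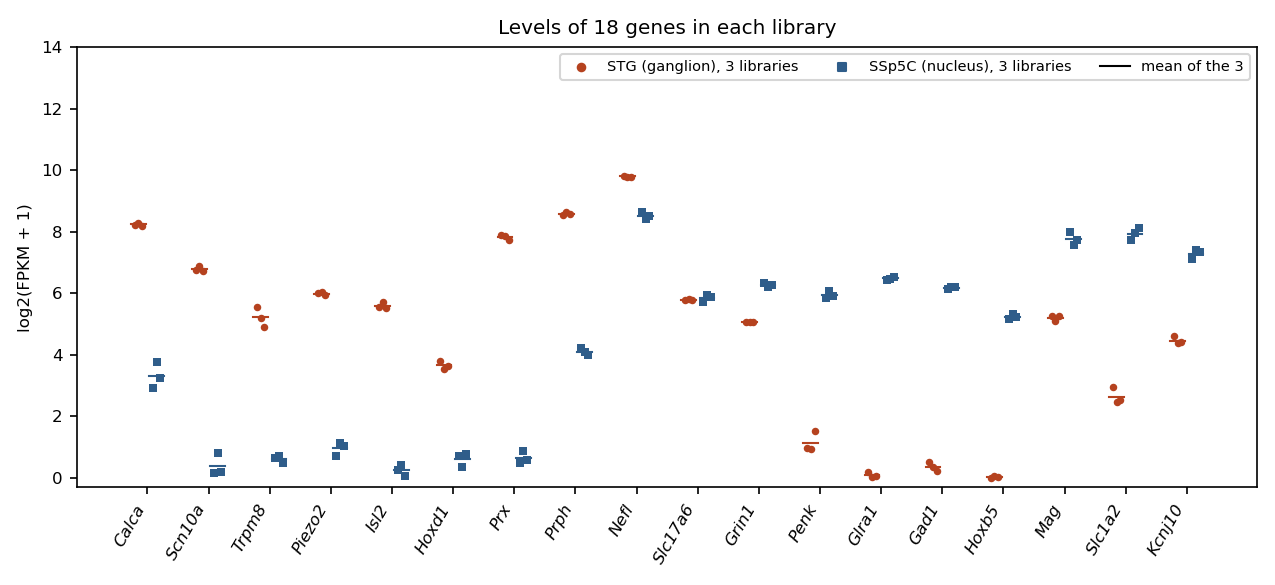
Level as log2(FPKM + 1) (y axis) of 18 genes (x axis) in each STG (circles) and SSp5C (squares) library, with group means as bars. Slc17a6 overlapped between the tissues, Calca to Nefl were higher in each STG library, and Grin1 to Kcnj10 were higher in each SSp5C library.

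Ion channels set how sensory neurons fire. Of 13 voltage-gated sodium channel subunits, 5 were higher and 4 lower in STG, with a median of 0.205. Scn10a stood at 107.9, 116 and 104.5 FPKM in STG and 0.126, 0.763 and 0.152 in SSp5C. Scn9a, the channel whose loss in people abolishes pain, stood at 60.3, 62.0 and 58.9 against 0.949, 1.41 and 0.933 (4.88). Scn11a stood at 64.9, 58.8 and 53.6 against 0.0628, 0.208 and 0.0813. For all 3 nociceptor channels every STG library was far above every SSp5C library, and the highest SSp5C value was in SSp5C replicate 2. Scn10a and Scn11a were near 0 in SSp5C and passed the filter on low levels through STG, which fixed their direction. Scn7a (5.13), a glial and neuronal sodium sensor, and the beta subunit Scn3b (1.28) were also higher, the last with a call lost in 5 of the 6 fits with 1 library left out. The brain-type channels Scn2a (-2.43), Scn1a (-1.20) and Scn3a (-1.19) and the beta subunit Scn2b (-1.22) were lower. Scn8a (-0.48), of nodes of Ranvier in both tissues, was not called.

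TRP, P2X, acid-sensing and Piezo channels sense temperature, irritants, ATP, acid and touch. Of 13 TRP channels, 6 were higher and 1 lower. Trpm8, the cold and menthol receptor, stood at 46.2, 35.6 and 29.2 FPKM in STG and 0.56, 0.639 and 0.409 in SSp5C (4.61). Trpa1, the irritant receptor, stood at 17.2, 14.2 and 13.6 against 0.0246, 0.393 and 0.0428 (3.80), and Trpv1, the capsaicin receptor, at 10.3, 12 and 11.5 against 0.0106, 0.299 and 0.0581 (3.46). Trpm8, Trpa1 and Trpv1 were near 0 in SSp5C and passed the filter on low levels through STG, which fixed their direction. Trpv2 (1.59) was higher and Trpc5 (-2.25) lower. Of 11 ATP-gated, acid-sensing and Piezo channels, 5 were higher and 1, Asic4 (-1.47), lower. Asic3 (5.18), Piezo2 (5.02), the main channel of light touch, P2rx3 (4.91) and P2rx7 (1.82) led them. Piezo2 stood at 62.8, 64.7 and 60.6 FPKM against 0.646, 1.23 and 1.05, whereas Piezo1 was not called (0.43).

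Potassium and calcium channels divided within their families. Of 33 voltage-gated potassium channel subunits, 10 were higher and 7 lower. Kcnd1 (2.96), Kcnb2 (2.27) and Kcns1 (2.22) were highest, and Kcnd2 (-3.75), Kcnc1 (-2.43) and Kcng4 (-1.76) were among the lowest. Kcnd1 and Kcnd2, which both carry fast A-type current, had opposite orders: Kcnd1 stood at 29.4 ± 0.75 FPKM in STG and 2.91 ± 0.22 in SSp5C, and Kcnd2 at 0.741 ± 0.30 and 22.2 ± 0.64. Of 21 inward rectifier and K2P leak channels, 4 were higher and 11 lower. Kcnk18, the TRESK leak channel, stood at 12.8, 13.8 and 11.7 FPKM in STG and 0, 0.0988 and 0 in SSp5C (3.74). It passed the filter on low levels through STG alone, which fixed its direction. Kcnj4 (2.42), Kcnk5 (1.99) and Kcnj12 (1.22) were the others called higher, and Kcnk9 (-3.37), Kcnj9 (-2.93), Kcnj16 (-2.88) and Kcnj10 (-2.82) were lowest. Of 21 calcium channel subunits, 3 were higher, Cacnb3 (2.5), Cacna2d1 (1.15), the gabapentin target, and Cacna1h (1.04), and 8 lower, among them Cacna1g (-2.56), Cacna1e (-2.5), Cacng2 (-2.36) and Cacng8 (-2.35). Of 4 HCN pacemaker channels, Hcn2 was lower (-1.76) and the others were not called.

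Genes of itch and of the non-peptidergic nociceptors were higher in STG, 12 of 12 called (median 2.60). Most of them stood near 0 in SSp5C and passed the filter on low levels through STG, which fixed their direction. Mrgprd, the receptor that marks non-peptidergic skin nociceptors, stood at 37.8, 35.0 and 31.6 FPKM in STG and 0.0565, 0.0376 and 0.0455 in SSp5C (5.09). The itch receptor genes Mrgpra3, at 3.65, 3.85 and 3.81 FPKM in STG, and Mrgprb5, at 4.89, 2.95 and 3.70, were listed at 0 in all SSp5C libraries. The Mrgpr genes belong to a family of near-identical copies, so their separate levels are uncertain. Lpar3 (3.25), Mrgprx1 (2.76) and Osmr (1.4) were among the rest. Of 10 receptors for neurotrophins and GDNF family factors, 6 were higher and 2 lower. Ngfr stood at 130.0, 149 and 140.4 FPKM against 2.42, 2.63 and 1.87. Gfra3 (3.91) and Ret (2.95) were also higher, Sort1 (-1.23) and Gfra4 (-1.03) lower. Ntrk2 (-0.89) and Ntrk3 (0.94) were not called.

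Transcription factors that specify neuron types differed by tissue. Of 17 sensory neuron factors, 13 were higher and 0 lower in STG (median 1.92). Isl2 stood at 46.1, 51.2 and 44.7 FPKM in STG and 0.185, 0.346 and 0.0581 in SSp5C (5.34), and Isl1 (4.10), Pou4f1 (3.42) and Runx1 (3.26), which specify sensory neurons and nociceptors, followed. Ebf2 (0.51), Etv1 (0.24), Shox2 (0.12) and Ebf3 (-0.21) were not called. Of 17 hindbrain and dorsal horn factors, 0 were higher and 15 lower (median -1.96). Lbx1, a factor of dorsal association neurons, stood at 0.0151, 0.0151 and 0.0323 FPKM in STG and 12.1, 10.5 and 9.40 in SSp5C (-3.50). Pax2 (-2.97), Zic1 (-2.68) and Irx2 (-2.48) were next, and Zic2 (-0.76) and Zic4 (-0.68) were not called. Members near 0 in a tissue, such as Isl2 in SSp5C and Lbx1 in STG, passed the filter on low levels through the other tissue, which fixed their direction.

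Hox genes, which lay down position along the body axis and are expressed in the hindbrain but not in the head region that forms the trigeminal ganglion, were nearly all lower in STG. The table holds 40 Hox entries, and 16 passed the filter of 1 FPKM. Of these, 15 were called lower in STG and 1 higher (median -3.04). The 40 entries summed to 12.6 to 16.4 FPKM in STG and 165 to 183 in SSp5C. Most of those called lower stood near 0 in STG and passed the filter through SSp5C, which fixed their direction. Hoxb5 stood at 0, 0.0396 and 0.0212 FPKM in STG and 35.2, 39.0 and 36.6 in SSp5C. Hoxa5 stood at 0.0479, 0.0199 and 0.0321 against 30.4, 32.3 and 28.0. Hoxc4, at 12.9, 14.5 and 14.5 FPKM in SSp5C, and Hoxc5, at 3.23, 3.69 and 3.89, were listed at 0 in all STG libraries. Hoxb6 (-3.62), Hoxa6 (-2.28) and Hoxb8 (-2.22) were among the others. Hoxd1 alone had the reverse order, at 13, 10.5 and 11.4 FPKM in STG and 0.658, 0.287 and 0.722 in SSp5C (3.03, adjusted p = 1.71e-06), with every ganglion library above every nucleus library. In mice Hoxd1 is known as a factor of nociceptors.

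Filaments and microtubules give axons and glia their form. All 10 intermediate filament genes tested were called, 8 higher and 2 lower in STG. Prph, peripherin of peripheral neurons, stood at 368, 397 and 380.4 FPKM in STG and 17.8, 16.0 and 14.9 in SSp5C (4.48). Vim (2.93), Synm (2.40), Nes (2.05), Nefm (1.51), Nefh (1.38) and Nefl (1.27) were higher as well. Ina, the central neuronal filament alpha-internexin, stood at 5.48 ± 0.53 against 93.8 ± 7.22 (-3.87), and Gfap, the astrocyte filament, at 28.3, 28.4 and 30.9 against 225, 199 and 212 (-2.82). Among tubulins, Tubb3 (1.57), Tubb6 (1.53) and Tubb5 (1.12) were higher and Tubb4a (-1.29) and Tuba8 (-1.17) lower of 14. Of 16 microtubule-associated proteins, Tppp3 (2.45), Map1b (1.51) and Stmn2 (1.10) were higher and Tppp (-3.58), Stmn4 (-2.74) and Map2 (-1.63), the dendritic protein, lower.

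Postsynaptic scaffolds and kinases had 0 higher and 12 lower of 22 (median -1.10), led by Shank1 (-2.76), Nrgn (-2.43), Camk2b (-2.33) and Dlgap2 (-1.89). Homer2 (0.84), Kalrn (0.28) and Camk2d (0.20) were not called. Synaptic adhesion genes had 0 higher and 9 lower of 20, led by Cbln1 (-3.14), Cbln4 (-3.03), Lrrc4b (-2.38) and Nrxn3 (-1.84). The machinery of vesicle release, which sensory neurons also make for their central endings, had 1 higher and 6 lower of 24 (median -0.67). Its paralogues divided: the vesicle protein Sv2a stood at 12.1, 11.8 and 12.5 FPKM in STG and 135, 131 and 131 in SSp5C (-3.34), while Sv2b (54.0 ± 1.73 against 30.8 ± 1.11) and Sv2c (89.1 ± 6.09 against 56.4 ± 2.25) were higher in STG by 0.79 and 0.65, both short of the size threshold. The fusion protein Stx1a (0.66) was not called. The calcium sensor Syt9 (1.95) was the member called higher, and Unc13c (-2.13) and Syn3 (-1.92) followed Sv2a. Of 53 clustered protocadherins, 50 were not called. Pcdhac1 (1.60) was higher and Pcdhgc4 (-1.44) and Pcdhgc5 (-1.17) were lower. These genes share exons, so their separate levels are uncertain.

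Glial genes followed the origin of the tissue. All 18 peripheral myelin and Schwann cell genes were called higher in STG (median 4.24), among them Prx, Plekha4 and Cldn19, and at the low end Fgl2 (2.24), Cdh19 (2.02) and L1cam (1.44). Egr2, the master factor of Schwann cell myelination, stood at 2.46, 1.32 and 7.28 FPKM in STG and was listed at 0 in all SSp5C libraries. Members near 0 in SSp5C, such as Egr2, Prx, Plekha4 and Cldn19, passed the filter on low levels through STG, which fixed their direction. Of 16 oligodendrocyte genes, 15 were called lower (median -3.44), with Olig1, Mobp (-4.56), Opalin (-4.34) and Mog (-4.11) lowest, and Aspa (-0.86) not called. The 17 astrocyte genes were all called lower (median -2.82), with Slc1a2, Slc7a10 (-4.56), Fgfr3 (-3.72) and Itih3 (-3.68) lowest. Astrocyte genes summed to 159 to 178 FPKM in STG and 1396 to 1609 in SSp5C. Of 8 genes of oligodendrocyte precursors, 6 were lower, led by Gpr17 (-3.50).

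Another list holds myelin genes that both myelinating cell types use. Of 12, 1 was higher and 5 lower in STG. Mag, an adhesion protein of the inner myelin wrap, stood at 37.7, 33.6 and 37.0 FPKM in STG and 252, 187 and 209.7 in SSp5C (-2.54). Mbp, which compacts myelin, stood at 387 ± 36.2 against 817 ± 24.8 (-1.08) and Gjb1 at 12.7 ± 0.51 against 30.5 ± 1.85 (-1.20). The lipid enzyme Ugt8a (128 ± 7.04 against 129 ± 2.98) and the connexin Gjc3 (42.8 ± 0.98 against 42.9 ± 2.93) were not called, with overlapping groups. Sox10 (0.78) was not called and Erbb3, the neuregulin receptor of Schwann cells, was higher (1.64). The satellite glia list divided, with 8 higher and 5 lower of 14. Fbln2 (4.12), Matn2 (3.52), Fabp7 (2.42) and Cdh19 were highest. Kcnj10, the potassium buffering channel that satellite glia share with astrocytes, stood at 23.3, 19.8 and 20.4 FPKM in STG and 138, 167 and 163 in SSp5C, and Glul and Ttyh1 (-1.47), also shared with astrocytes, were lower too.

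Connective tissue genes were mostly higher in the ganglion. The part of its collagenous capsule in this was not tested. Of 30 collagens, 21 were higher and 2, Col25a1 (-1.82) and Col9a3 (-1.01), lower in STG (median 1.84). Col28a1, a collagen of peripheral glia, stood at 29.4, 31.6 and 27.2 FPKM in STG and 0.288, 0.517 and 0.334 in SSp5C (4.46). Col5a3 (4.34), Col14a1 (4.29) and Col1a1 (4.25) came next. Of 8 laminins, 4 were higher, Lamb1 (3.83), Lama4 (2.95), Lama2 (2.60) and Lamc1 (1.55), and 0 lower. The brain matrix of lecticans, link proteins and tenascins had the reverse order, with 7 of 10 lower, led by Hapln2 (-3.40), Tnr (-2.44), Ncan (-2.02) and Vcan (-1.79), and Tnxb (2.68) higher. Of 12 fibroblast and meningeal genes tested, 6 were higher and 0 lower, led by Ogn (5.21), Lum (4.43), Col1a1 and Col1a2 (4.06). Ogn stood at 127, 134 and 131 FPKM in STG and 1.04, 10.8 and 0.845 in SSp5C. The high SSp5C value lies in SSp5C replicate 2, the library with the highest fibroblast sum of its group, and without it 10 of the 12 were called higher.

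Immune and vascular genes differed in part. Of 14 MHC class I and II genes tested, 11 were higher and 0 lower (median 1.68). Cd74, the class II chaperone, stood at 51.6, 28.2 and 62.0 FPKM in STG and 3.00, 5.94 and 2.90 in SSp5C (3.27), and H2-Aa (2.82), H2-Eb1 (2.78) and H2-Ab1 (2.68) followed. The summed level of the list varied between 397 and 777 FPKM among STG libraries. The immunoproteasome subunits Psmb8 (1.88) and Psmb9 (1.49) and the proteasome activator Psme2 (1.27) were the 3 of 41 proteasome genes called, all higher. Of 16 complement genes, 6 were higher, led by the complement regulators Cd55 (4.24) and Serping1 (2.95), and C1s1 (2.15) and Cd59a (1.85) were among them. Microglia genes had 4 of 9 lower, Sall1 (-2.42), Tmem119 (-1.61), P2ry12 (-1.20) and Siglech (-1.13), and 1 higher, Olfml3 (1.43). Without SSp5C replicate 3, 2 of 8 were lower, and the call of P2ry12 was lost in 4 of the 6 fits with 1 library left out. Macrophage genes had 3 of 12 higher, Mrc1 (1.96), Pf4 (1.51) and F13a1 (1.21), markers of macrophages at borders and in nerves. Of 11 T, B and mast cell genes, 3 passed the filter on low levels, all of them mast cell genes, and since they passed it through STG alone their direction was fixed by it. Mcpt4 stood at 4.42, 0.825 and 4.06 FPKM in STG and 0, 0.031 and 0 in SSp5C (1.87), Cpa3 at 2.48, 1.02 and 2.59 against 0, 0.0708 and 0 (1.52), and Cma1, at 2.95, 0.941 and 3.16 in STG, was listed at 0 in all SSp5C libraries. The levels were low, and without STG replicate 3 only 1 of these genes passed the filter.

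Of 10 general endothelial genes, 0 were called (median -0.05), and with limma 2 higher and 3 lower passed the adjusted p without the size threshold. Of all 13038 genes tested, 4218 higher and 3967 lower passed it in that way. Of 11 blood-brain barrier genes, 3 were lower, Slco1c1 (-2.26), Ocln (-1.41) and Foxf2 (-1.19), and 1 higher, Abcg2 (1.06). Ackr1, of venules, was higher (1.17), as were the mural genes Pdgfrb (1.26) and Tagln (1.16). Red blood cell genes had 0 of 5 called, but without STG replicate 3, the library rich in them, 4 of 5 were lower in STG. The 7 pituitary genes tested were not called, and STG replicate 1 held nearly all of their RNA. Gh, growth hormone, stood at 2421, 2.06 and 4.05 FPKM in STG and 0, 0 and 0.205 in SSp5C, and Pomc at 24.1, 0.334 and 1.67 against 0.664, 0.697 and 0.74. Lhb stood at 20.6, 0.0357 and 0.525 FPKM in STG and 0, 0.148 and 0 in SSp5C. Prl (240, 0.0839 and 0.222 FPKM in STG), Cga (138, 0.0509 and 3.10), Fshb (15.9, 0 and 0.375) and Pou1f1 (8.79, 0 and 0) were listed at 0 in all SSp5C libraries. The sperm genes Prm1, Prm2, Tnp1 and Tnp2, at 6.93 to 8.91 FPKM in sum in the other libraries and listed at 0 in STG replicate 1, were not called either.

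Guidance and injury genes gave mixed orders. Of 31 semaphorins, plexins and neuropilins, 10 were higher and 5 lower. Sema3b stood at 83.8, 89.8 and 71.6 FPKM in STG and 1.20, 2.22 and 1.44 in SSp5C (4.99), and Plxnc1 (2.74), Plxnd1 (2.69) and Sema3g (2.38) followed. Sema6b (-2.70), Sema3a (-1.93), Sema4d (-1.61) and Sema6a (-1.28) were lowest. Among 11 nerve injury and regeneration genes, Socs3 (2.0), Stmn2 and Atf3 (1.09) were higher and Ecel1 (-3.09) and Cap2 (-2.34) lower. Atf3, the marker of axotomised neurons, was low in both tissues, at 1.88 ± 0.48 against 0.348 ± 0.11 FPKM. Of 9 immediate early genes, Nr4a1 (1.66) and Egr3 (1.13) were higher and Arc (-2.27), Egr1 (-1.20) and Fos (-1.11) lower.

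Most members of the lists of genes that every cell uses were not called. None of 78 ribosomal protein genes, 78 oxidative phosphorylation genes and 17 cholesterol synthesis genes was called with limma, although 33, 57 and 13 of them passed the adjusted p without the size threshold. Of all 13038 genes tested, 4218 passed it toward higher and 3967 toward lower values, so passing alone is not particular to these lists. Oxidative phosphorylation genes passed only toward lower values in STG (median -0.38), as in Sdha (69.0 ± 2.36 against 131 ± 0.71 FPKM, -0.92). Cholesterol synthesis genes passed mostly toward higher values, 12 against 1, as in Fdps (71.1 ± 4.13 against 38.3 ± 3.09, 0.88) and Fdft1 (27.9 ± 1.17 against 17.9 ± 1.82, 0.62). For 2 further members the value of 1 library stood apart. Ndufs3 was listed at 0 in STG replicate 2 and at 17.8 to 27.7 FPKM elsewhere, and Cox7a2l stood at 1.24 FPKM in SSp5C replicate 2 and 65.5 to 82.7 elsewhere. Of 17 glycolysis genes, Ldha (1.41) was higher and Aldoc (-3.31), the astrocyte aldolase, lower.

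The contrast of the other 6 libraries, CTG against CSp5C, called 18.9% of its 13100 genes, 1259 higher and 1212 lower. Of the genes called higher in STG, 86.2% were also called higher in CTG, and of those called higher in CTG, 89.1% in STG. For lower genes the shares were 91.7% and 90.3%, and 0 genes were called in opposite directions. The test of the difference between both contrasts over 12 libraries (limma) gave 0 of 13081 genes with an adjusted p under 0.05 and 708 with an unadjusted p under 0.05. The smallest adjusted p was 0.862.

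Genes can differ between tissues in which transcript they use as well as in level. The share of a transcript is its percentage of the summed FPKM of its gene, and 11104 transcripts of 4213 genes with at least 5 FPKM in both tissues could be tested. With limma, 256 transcripts (2.31%) were called, at an adjusted p under 0.05 and a share difference of at least 20 percentage points, 125 higher and 131 lower in STG. They belonged to 163 genes (3.87%), of which 122 were not called in level. Of all genes tested in level only 19.1% were called, so a gene not called in level is common here. The median share difference in size over all transcripts tested was 4.52 points. In the C libraries, 242 of the 256 differed in the same direction and 171 of these by at least 20 points. Leaving out 1 library at a time kept the direction of all 256, and 114 were called in each of the 6 fits and 38 in none. With the replicate number as a block in limma, 0 transcripts were called, and the smallest adjusted p was 0.0507. Of the 2496 genes called in level, 2176 were called in each of the 6. Shares of transcripts that overlap in most of their sequence are estimates of the authors' software, not direct counts.

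The transcripts were matched by identifier to GENCODE release M21 (GRCm38), where 11089 of 11104 were found, since the annotation the authors used is not given in the sources used here. For each of the 163 genes the transcript with the highest and that with the lowest difference were compared. The first exon differed in 72 pairs, the last in 46 and both in 17. In 46 pairs that shared both ends, 1 transcript had an internal exon the other lacked. The transcript with the higher STG share had more internal exons in 21 of these pairs and fewer in 22.

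In several pairs of transcripts the coding sequences differed by 1 or 2 exons, most of them in genes not called in level. Dgcr2, an adhesion receptor, had 21.9 ± 0.85 FPKM in STG and 24.9 ± 6.14 in SSp5C. Its transcript Dgcr2-204, which holds a 204-base exon, took 93.6, 93.5 and 95.5% of that in STG and 0.864, 0.395 and 2.48% in SSp5C (limma, adjusted p = 0.000952). All 3 Dgcr2 transcripts that hold the exon made up 100% in each STG library and 30.3, 21.5 and 33.8% in SSp5C. The transcript without the exon was listed at 0 in each of the STG libraries, and it took 69.7, 78.5 and 66.2% in SSp5C. Pomgnt1 is an enzyme of dystroglycan glycosylation. Its transcript Pomgnt1-203, with a 99-base exon, took 99.6, 99.5 and 99.7% in STG and 23.9, 14.2 and 5.99% in SSp5C. Usp15, a deubiquitinase, used the transcript with an 87-base exon at 17.4, 15.6 and 16.0% in STG and 71.0, 77.4 and 77.3% in SSp5C. The giant cadherin Fat1 used the transcript with exons of 69 and 60 bases at 1.09, 0.223 and 0.953% in STG and 66.6, 63.6 and 66.7% in SSp5C. Sh3pxd2a, a scaffold of invasive membrane feet and itself called higher in STG (2.12), used the transcript with an 84-base exon at 94.1, 94.5 and 91.2% in STG and 51.3, 44.5 and 49.3% in SSp5C. Pip5k1c, which makes the lipid PIP2 at synapses, used the main transcript with a 78-base exon at the end of its coding sequence at 5.85, 10.4 and 11.5% in STG and 54.3, 48.0 and 57.2% in SSp5C. In none of these did the groups overlap. For Dgcr2 and Pomgnt1 this was a condition of their choice, so it is not a result about them. Pomgnt1 and Pip5k1c have other transcripts with the same exon. Over all transcripts that hold it, the Pomgnt1 exon stood at 100% in each STG library and 27.75, 21.5 and 21.6% in SSp5C. The Pip5k1c exon stood at 6.01, 11.2 and 13.4% in STG and 59.4, 53.6 and 63.0% in SSp5C. Each of these exons is a multiple of 3 bases long and wholly coding in the annotation, so both transcripts of a pair keep the same frame. The pairs also differ in noncoding ends, among them those of Usp15, Sh3pxd2a, Pip5k1c and Fat1, and the share of a whole transcript does not tell these from the exon. Usp15, Fat1, Sh3pxd2a and Pip5k1c were chosen after their values were seen. The exons are printed because they are the coding sequence by which the paired transcripts differ in the annotation, 5′ to 3′ on the gene's strand, with the exon in capitals and 15 coding bases of the neighbouring exons in lower case (for Pip5k1c only the bases before it).
Dgcr2-204, chr16:17849591-17849794 (minus strand): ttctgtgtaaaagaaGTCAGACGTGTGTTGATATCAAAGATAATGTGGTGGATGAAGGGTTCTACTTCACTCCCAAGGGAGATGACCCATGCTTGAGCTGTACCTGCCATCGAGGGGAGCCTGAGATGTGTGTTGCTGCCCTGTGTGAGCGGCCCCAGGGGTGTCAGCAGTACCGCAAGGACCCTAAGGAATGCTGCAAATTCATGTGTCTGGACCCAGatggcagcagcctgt
Pomgnt1-203, chr4:116153842-116153940 (plus strand): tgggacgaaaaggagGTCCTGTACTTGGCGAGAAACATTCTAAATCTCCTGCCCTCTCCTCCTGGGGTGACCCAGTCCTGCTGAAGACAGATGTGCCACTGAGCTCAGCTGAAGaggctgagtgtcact
Usp15-211, chr10:123153041-123153127 (minus strand): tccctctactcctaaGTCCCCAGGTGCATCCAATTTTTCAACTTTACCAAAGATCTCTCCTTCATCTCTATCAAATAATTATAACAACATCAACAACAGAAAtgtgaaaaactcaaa
Fat1-206, chr8:45012019-45012087 (plus strand): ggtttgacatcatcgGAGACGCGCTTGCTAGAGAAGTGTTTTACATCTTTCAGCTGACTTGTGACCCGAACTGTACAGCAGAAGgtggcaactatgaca
Fat1-206, chr8:45047650-45047709 (plus strand): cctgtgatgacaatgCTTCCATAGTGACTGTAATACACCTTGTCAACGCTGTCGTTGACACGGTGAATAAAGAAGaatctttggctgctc
Sh3pxd2a-201, chr19:47283021-47283104 (minus strand): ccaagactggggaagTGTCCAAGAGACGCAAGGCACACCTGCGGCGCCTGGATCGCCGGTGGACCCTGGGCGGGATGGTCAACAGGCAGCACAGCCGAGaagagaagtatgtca
Pip5k1c-202, chr10:81317326-81317403 (plus strand): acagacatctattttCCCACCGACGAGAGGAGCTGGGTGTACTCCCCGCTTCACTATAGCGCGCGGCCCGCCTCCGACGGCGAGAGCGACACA

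Coding starts and small inserts differed as well. Fgf13, a partner of sodium channels, was itself called higher in STG (1.99), and the first exon of its leading transcript differed between the tissues. The transcript that starts in the exon with a short coding part took 78.9, 82.7 and 80.1% in STG and 13.6, 13.7 and 11.4% in SSp5C. The transcript with the long coding start, which encodes the form known to bring about long-term channel inactivation, took 19.7, 16.1 and 18.9% in STG and 67.0, 70.2 and 70.1% in SSp5C. Fgf13-205, Fgf13-206 and Fgf13-208 together took 1.21, 1.04 and 0.812% in STG and 19.1, 16.0 and 18.2% in SSp5C. Fgfr1, an FGF receptor not called in level (0.33), used a transcript with 6 more coding bases at 73.3, 79.9 and 85.4% in STG and 13.6, 11.4 and 11.7% in SSp5C. This Fgfr1 pair also differs in noncoding ends, which the share of a whole transcript does not tell from the 6 bases. All Fgfr1 transcripts that hold the 6 bases made up 85.7, 87.7 and 86.6% in STG and 13.6, 11.4 and 11.7% in SSp5C. Asic1, an acid-sensing channel chosen after its values were seen, has alternative coding starts known as forms a and b. The transcript of the upstream start (form a) took 54.3, 57.6 and 57.0% in STG and 96.9, 94.5 and 97.0% in SSp5C, and that of the downstream start (form b), known from sensory neurons, took the rest. The coding starts of Fgf13 and the 6 bases of Fgfr1 are shown in capitals, with 15 bases of the adjoining exon in lower case.
Fgf13-202, chrX:59166013-59166040 (minus strand): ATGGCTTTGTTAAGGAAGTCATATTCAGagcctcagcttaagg
Fgf13-201, chrX:59133877-59134063 (minus strand): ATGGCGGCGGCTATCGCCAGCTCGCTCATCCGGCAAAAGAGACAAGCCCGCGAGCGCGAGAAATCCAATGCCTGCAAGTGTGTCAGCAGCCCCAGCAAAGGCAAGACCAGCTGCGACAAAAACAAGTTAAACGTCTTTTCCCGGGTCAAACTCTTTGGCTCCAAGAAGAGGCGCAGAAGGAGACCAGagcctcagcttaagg
Fgfr1-201, chr8:25557815-25557820 (plus strand): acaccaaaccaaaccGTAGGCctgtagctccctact

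Among the 12 genes with the widest share differences, the pairs of Supt5, Slc8a1, Fat3 and Oprl1 had equal coding lengths. Supt5, a transcription elongation factor, used 1 of its pair at 91.6, 96.9 and 92.9% in STG against 2.37, 1.18 and 1.08% in SSp5C. Slc8a1, the sodium-calcium exchanger, was lower in STG (-2.98), and the transcript that took 89.5, 95.7 and 93.2% in SSp5C was listed at 0 in STG. Its counterpart, from another first exon, took 56.0, 100 and 100% in STG, and that call held in 1 of the 6 fits with 1 library left out. Fat3 used the transcript of another first exon at 61.0, 64.7 and 63.0% in STG against 2.38, 5.74 and 8.77%. Gas7, a growth arrest gene of neurons, did likewise at 82.8, 81.9 and 79.6% against 2.70, 11.5 and 2.93%, with 12 more coding bases in the ganglion form. For Oprl1, the transcript that took 69.8, 81.5 and 71.3% in SSp5C took 0.886, 0 and 0% in STG. Mtcl1 and Ccdc136 lost their leading SSp5C transcript in STG as well, from 81.2 ± 8.72% to 0 in each library and from 76.5 ± 6.44% to 3.25 ± 3.67%. The call of Shtn1 (92.5 ± 7.17% against 14.4 ± 5.81%) held in 2 of the 6 fits.

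**Figure D4:**
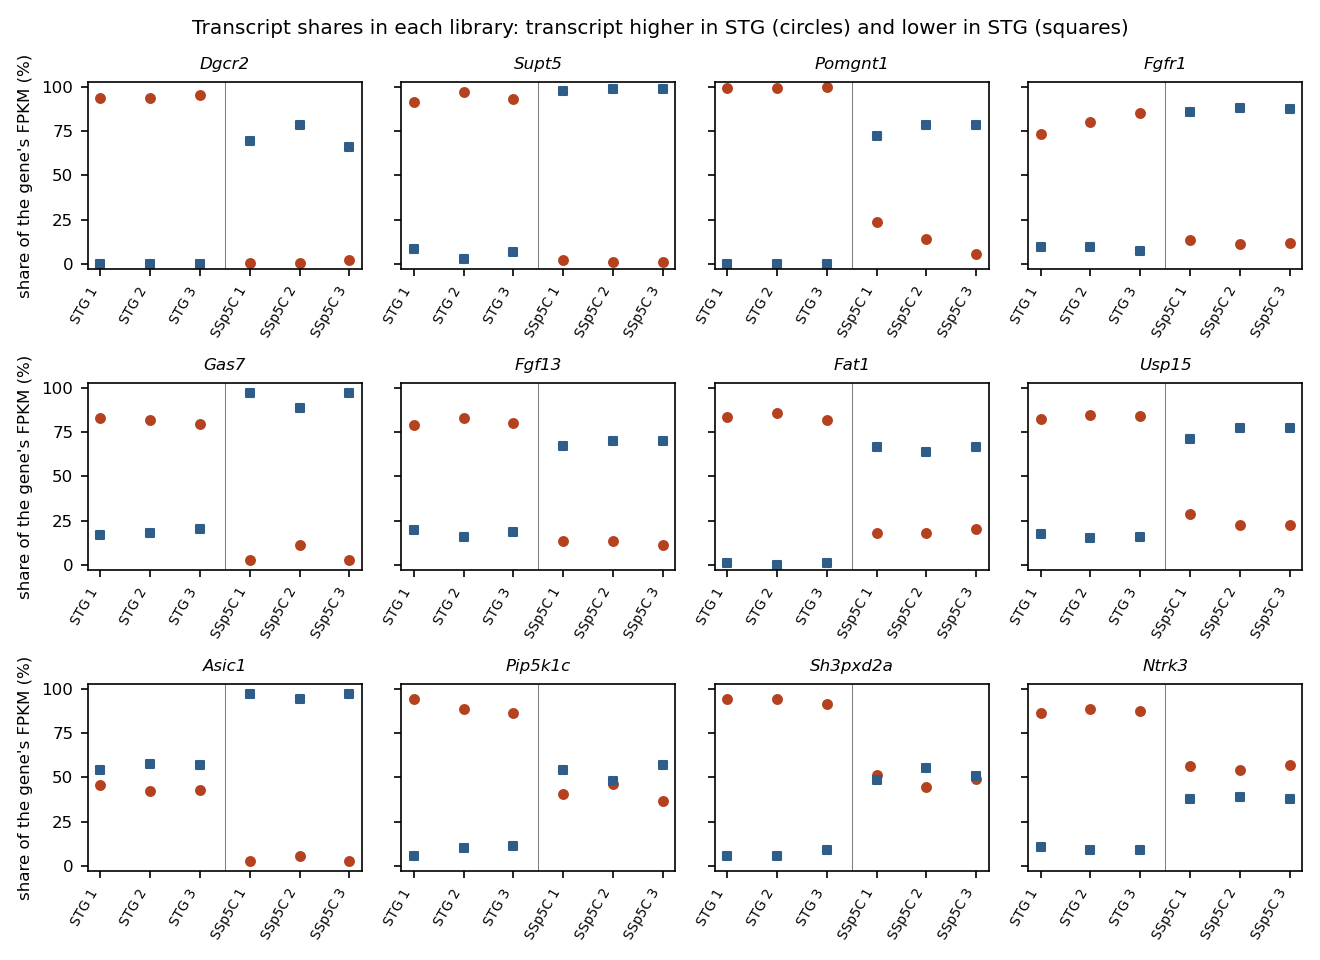
Share of the gene's summed FPKM (y axis, %) taken by the transcript with the highest (red circles) and the lowest (blue squares) share difference in 12 genes, in each of the 3 STG and 3 SSp5C libraries (x axis). In 9 of the 12 the transcript that led the pair in every STG library was below the other in every SSp5C library, and Sh3pxd2a, Ntrk3 and Asic1 were the exceptions.

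A list of 75 genes known for alternative transcripts in neurons and glia had a called transcript in 10 (13.3%, against 3.87% of all genes tested). The list was chosen with earlier results of these data known, so its higher percentage is not independent evidence. Its genes were also not matched to the rest in the number of transcripts tested. Mapt, tau, is known to make a larger protein, big tau, in peripheral neurons. It was not called in level (0.05). Mapt-203, which holds the whole 759-base exon of this large form, took 29.8, 29.4 and 28.7% in STG and 8.39, 7.34 and 6.80% in SSp5C. Together with Mapt-202, which holds 711 bases of the exon, it took 37.6, 38.2 and 38.3% in STG and 9.35, 10.2 and 8.53% in SSp5C. Clta, a clathrin light chain, has optional coding exons of 54 and 36 bases. The transcript with the 54-base exon alone (Clta-204) took 15.7, 14.6 and 18.1% in STG and 46.0, 42.2 and 41.8% in SSp5C. The Clta transcript with the 36-base exon alone (Clta-203) took 14.2 ± 1.62% in STG and 1.33 ± 0.61% in SSp5C, short of the 20-point threshold. Clta-205, which holds both exons, took 45.6 ± 0.32% in STG and 39.3 ± 3.09% in SSp5C and was not called. Over all Clta transcripts that hold it, the 54-base exon stood at 61.0, 60.6 and 63.5% in STG and 83.3, 80.01 and 84.7% in SSp5C, and the 36-base exon at 59.1, 61.9 and 58.2% against 37.9, 39.7 and 44.3%. Ntrk3, the neurotrophin 3 receptor, used the transcript of the full kinase form at 86.1, 88.4 and 87.6% in STG and 56.2, 54.3 and 57.0% in SSp5C, and the truncated form without the kinase exons at 9.63 ± 1.16% and 38.2 ± 0.77%. The optional exons of Clta are given in the same way, in capitals.
Clta-203, chr4:44031400-44031435 (plus strand): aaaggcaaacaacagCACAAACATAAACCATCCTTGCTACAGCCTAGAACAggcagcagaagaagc
Clta-204, chr4:44030215-44030268 (plus strand): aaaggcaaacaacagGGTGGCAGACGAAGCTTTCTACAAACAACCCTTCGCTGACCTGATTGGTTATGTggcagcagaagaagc

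Other called genes of this list were Mag, Atp2b1, Ank2, Gphn and Ptprf. Mag used 1 of its transcripts at 26.1 ± 0.74% in STG and 5.48 ± 1.72% in SSp5C, a call that held in 4 of the 6 fits with 1 library left out. An incomplete Atp2b1 transcript took 5.74 ± 1.01% in STG and 26.3 ± 0.77% in SSp5C (6 of 6). For Gphn, the transcript with a 108-base exon took 96.3 ± 2.27% in STG and 70.4 ± 7.58% in SSp5C, which held in 1 of 6 fits, as did Ank2 (35.2 ± 4.30% against 8.23 ± 4.12%). Ptprf (87.2 ± 3.43% against 64.0 ± 8.00%) held in 0 of 6. Genes that regulate splicing differed in level in part: of 28, 2 were higher in STG, Ptbp3 (1.35) and Elavl4 (1.26), and 5 lower, among them Nova1 (-3.48), Celf4 (-2.08), Nova2 (-1.93) and Msi1 (-1.5). Of all genes tested, 19.1% were called in level, and whether the splicing regulators exceed this percentage was not tested. The part of these regulators in the share differences was not tested either.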

How the data were processed

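RNA levels were measured by sequencing in 12 libraries, of which 6 (3 STG, 3 SSp5C) are compared here. Per the labels, total RNA was freed of ribosomal RNA and made into strand-specific libraries. The authors deposited 1 FPKM value per transcript and library, for 57109 transcripts with gene identifiers. Per the submitters' processing notes, HISAT2, StringTie 1.3.1 and Cuffdiff 2.1.1 were used. The genome build and annotation are not stated in the sources used here and the read depth is unknown, so no counting error can be given. FPKM shares 1 total among all genes of a library, so a few very high genes lower the others.

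Transcript values were summed per gene identifier. Values were put on the scale log2(FPKM + 1), genes with a mean under 1 FPKM over the 6 libraries were left out, and the groups were compared with limma 3.58.1 in R 4.3.3 (moderated test with trend and robust settings, two-sided, Benjamini-Hochberg adjustment over all genes tested). Shares were tested with limma on log2((transcript FPKM + 0.5) / (rest of the gene + 0.5)) in genes with at least 5 FPKM in both groups, for transcripts with a mean share of 5 to 95%. The scripts were tested on simulated data. Genes were named by rule: the 15 highest and 15 lowest called genes with groups that did not overlap, up to 4 highest and 4 lowest per gene list, the 12 genes with the widest share difference, a list of genes known for alternative transcripts, and some marker genes; others, where called or not called members complete a list, were named after their values were seen. Members and lists were chosen with earlier results of these data known. Alternatives were another pseudocount, filter, scaling, test, threshold and fit, and each library left out. Some genes that the rule names are not reported here.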

Additional observations from a re-analysis of the deposited data

How the results depend on the processing

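The count of genes higher in STG was 1302 and that of genes lower 1194. They ranged over 1240 to 1385 and 1159 to 1238 with 1 library left out, and 2176 of the 2496 genes were called in all 6 of these fits. Without a size threshold the counts were 4218 and 3967. Testing against a log2 difference of 1 itself (limma's treat) called 810 and 839. A pseudocount of 0.1, no filter, a filter at 5 FPKM, other scalings, a fit over 12 libraries, a plain variance model and the replicate block kept both counts within 1.5 times.

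The count of transcripts with another share was 256. It was 423 with diffSplice, 445 with a threshold of 10 points and 169 to 230 with 1 library left out, lowest without SSp5C replicate 2. With the replicate block 0 transcripts passed limma's adjusted p, the smallest of which was 0.0507. At an unadjusted p under 0.05 there were 1661 of 11104 with the block and 2083 without it. The labels do not say whether same-numbered STG and SSp5C libraries are paired. Their residuals correlated at -0.077, -0.193 and -0.015, and those of libraries with different numbers at -0.125 to 0.214. Values from so few libraries cannot settle whether the samples are paired. The cause of the changes in the counts was not tested.

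Of the genes named, the calls of Gal, Scn3b, P2ry12, Cacna1h, Htr7, Col9a3, Tagln, Gfra4, Egr1 and Fos, among others, were lost with some library left out. The differences that changed sign belonged to genes that were not called. Quantile scaling gave 0.034 for Clta, 0.057 for Ugt8a and 0.009 for Gjc3. With 1 library left out, the differences ranged from -0.097 to 0.092 for Clta, -0.054 to 0.022 for Ugt8a, -0.058 to 0.032 for Gjc3, -0.258 to 0.039 for Dgcr2, -0.756 to 0.319 for Prm1, -0.665 to 0.116 for Tnp2, -0.214 to 2.398 for Cox7a2l and -0.686 to 0.906 for mt-Atp6. With 3 libraries a group and no read depth, low levels and moderate share differences are the least certain values.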

Other observations

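Cell junction genes differed by tissue. Of 17 claudins and connexins tested, 2 were higher and 7 lower in STG (median -0.51). Cldn19 and Cldn1 (2.13), claudins of nerve sheaths, were higher. Cldn11 (-3.83), which seals central myelin, Cldn10 (-3.19) and the astrocyte connexins Gjb6 (-2.34) and Gja1 (-2.25) were among those lower. Aqp1, a water channel found in the list of choroid plexus genes and also known from sensory neurons, was higher (4.54), while Ttr, the main choroid plexus product, was not called (-2.21).

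Genes called in either direction spanned more of the genome in GENCODE M21 than genes that were not called. The median span was 31.0 kb for genes higher in STG, 36 kb for genes lower and 24.7 kb for genes not called. Spans over 100 kb made up 20.9%, 28.6% and 14.2%.

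Of the 13 protein-coding genes of the mitochondrial genome, 0 were called with limma. SSp5C replicate 1 stood apart from its group in several: mt-Atp6 was at 602 FPKM there and at 5482 and 5291 in the others, against 3162, 3920 and 3023 in STG. These genes were looked at after their values were seen.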
